A study of Homo sapiens with 7 samples.

Results

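H3K36me3 intervals outside protein-coding genes were examined in HCT116 cells, a human colorectal carcinoma line. An interval was taken when it was under 30000 bp wide and shared no base with a protein-coding gene body of GENCODE 44 on hg19, and 3101 of the 40010 intervals of the H3K36me3 list met this (7.75%, 95% Wilson interval 7.49 to 8.02%). The set was thus chosen by peak position and width from the same list whose values are described here. Each interval was placed in the first class that applied, namely overlap with a long non-coding RNA (lncRNA) gene on either strand (1640 intervals), overlap with the 10 kb past a coding gene's 3′ end (576), and neither (885). Chromatin came from wells of 200000 cells in 100 µL, sheared for 6 min in the culture plate with the PIXUL ultrasound instrument, and each mark was read from 1 library made with 1 antibody. The lists of H3K4me3, H3K9Ac, H3K4me1, H3K27me3 and CTCF from the same line were set beside it. There was no contrast between treatments and no replicate, so the values below are counts, medians and shares without tests, and the Wilson intervals cover counting error only. They take each interval or gene as a separate count, although 79.0% of the set lay within 10 kb of another interval.

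H3K36me3 is laid down by SETD2, an enzyme that travels with elongating RNA polymerase II, so the mark builds up over the bodies of transcribed genes and increases toward their 3′ ends. H3K4me3 and H3K9Ac sit at active promoters, H3K4me1 at enhancers and promoter flanks, H3K27me3 in Polycomb-silenced chromatin, and CTCF at boundary elements. Polymerase continues past the cleavage site of a coding gene before it is released, and many lncRNA genes and hosts of microRNAs are transcribed by the same polymerase.

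Several of the intervals in lncRNA genes lay over microRNA hairpins, and some mature sequences are shown to identify the small RNAs encoded there. These examples were chosen after their values were seen. They are RefSeq entries of GRCh38.p14, matched by symbol, with the seed (bases 2 to 8) in capitals. The first group came from 1 interval of 7470 bp (fold enrichment 3.81) on chromosome 1 over MIR200B, MIR200A and MIR429, a cluster known for its part in the epithelial state.
hsa-miR-200b-3p: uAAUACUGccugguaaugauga
hsa-miR-429: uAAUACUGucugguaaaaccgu
hsa-miR-200a-3p: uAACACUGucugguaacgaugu
The first pair share the seed AAUACUG, and miR-200a-3p has AACACUG. A second group came from 1 interval of 12484 bp (fold enrichment 3.97) on chromosome 9 over MIRLET7A1, MIRLET7F1 and MIRLET7D, members of the growth-restraining let-7 family, which have 1 seed in common.
hsa-let-7a-5p: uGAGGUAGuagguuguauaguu
hsa-let-7f-5p: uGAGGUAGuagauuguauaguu
hsa-let-7d-5p: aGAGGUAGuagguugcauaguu
Another came from 1 interval of 10911 bp (fold enrichment 3.38) on chromosome X over MIR221 and MIR222 in MIR222HG, whose products have 1 seed in common.
hsa-miR-221-3p: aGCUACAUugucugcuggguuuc
hsa-miR-222-3p: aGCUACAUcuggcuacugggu
Single hairpins in their own hosts were MIR31 in MIR31HG, under 11307 bp at a fold enrichment of 4.59, and MIR34A in MIR34AHG, the host of a p53-induced microRNA, under 5251 bp at 3.12.
hsa-miR-31-5p: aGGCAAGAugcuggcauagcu
hsa-miR-34a-5p: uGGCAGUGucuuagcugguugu
In all, 32 of the 3101 intervals (1.03%, 0.732 to 1.45%) lay over a microRNA gene, 26 of them in lncRNA genes, against 0.766% of all intervals under the width limit. Of 1441 annotated microRNA genes outside coding genes 46 had an interval (3.19%, 2.40 to 4.23%), and 31 of the 46 had a RefSeq entry.

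The highest fold enrichments outside coding genes were at intervals of about 300 bp. The highest value (10.8) was of neither class, on chromosome 2, and the next (10) lay in LINC01445 on chromosome 7. Both have near-identical sequence elsewhere in hg19, at 1 and 2 other places. The others among the 8 highest were 7.86, 7.23, 7.16 and 6.93 at intervals with no annotated gene, 7.05 over SNHG1 and 6.57 in ENSG00000248939.

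The placement of the whole list was checked against coding genes first. Coding genes took up 45.6% of the assembled genome, and 36894 of the 40010 intervals (92.2%, 91.9 to 92.5%) touched one. All intervals together covered 14.6% of the bases in coding genes and 0.906% of the bases outside. Peak lists hold no read counts, so the sequencing depth is unknown. The fold enrichment is the peak caller's ratio of the immunoprecipitated signal over its background, as an average over the whole interval. The width limit left out 15 intervals. The 3 widest that were kept measured 29786 bp (chromosome 3, no annotated gene), 26770 bp (chromosome 12, DDX12B, a pseudogene) and 26201 bp (chromosome 2, SMPD4BP, a pseudogene), at fold enrichments of 3.26, 3.37 and 3.68. The 3 narrowest left out measured 30618 bp (SDHAP1), 31261 bp (PCBP1-AS1) and 33731 bp (no gene), at 4.89, 3.42 and 3.25.

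The classes ranked differently by number and by covered length. Per megabase (Mb) of assembled sequence outside coding genes there were 6.20 intervals in the 93.0 Mb past 3′ ends, 3.77 in the 435 Mb of lncRNA genes, and 0.861 in the remaining 1028 Mb. The intervals covered 0.842% of the sequence past 3′ ends, 1.01% of that in lncRNA genes and 0.220% of the rest. The rule leaves out intervals that also touch a coding gene. With these, all H3K36me3 intervals covered 6.00%, 1.38% and 0.244% of the same sequence, an order like that by number. Past 3′ ends the intervals of the set were short, with a median width of 930 bp (quartiles 585 and 1634 bp). Those in lncRNA genes had a median of 1482 bp (791 and 3466 bp), those of neither class 1054 bp (528 and 2134 bp), and intervals over coding genes 2111 bp (974 and 5249 bp). The median fold enrichments lay close together, at 2.91 in lncRNA genes, 2.83 past 3′ ends, 2.87 for neither and 2.96 over coding genes. In lncRNA genes the highest fold enrichments after LINC01445 were 7.05 (SNHG1), 6.57 (ENSG00000248939), 6.06 (MIR17HG) and 5.90 (TACR3-AS1). The widest there were 26056 bp over THSD1P1 and MRPS31P5, 25347 bp in PVT1 and 24456 bp over SDHAP3, at 3.37, 3.78 and 4.04.

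Stricter limits kept only part of the list, inside and outside coding genes. A q-value under 0.01 together with a fold enrichment over 2 was reached by 894 of the 3101 (28.8%, 27.3 to 30.4%), against 36.6% of all intervals under the width limit. The limits in the study's Methods (q-value under 1e-10 and fold enrichment over 5) left 8 of the 3101 (0.258%), near the 0.223% of all intervals under the width limit. Of these 8, only SNHG1 (3853 bp, fold enrichment 7.05) was wider than 400 bp, and the others measured 307 to 400 bp.

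**Figure D1:**
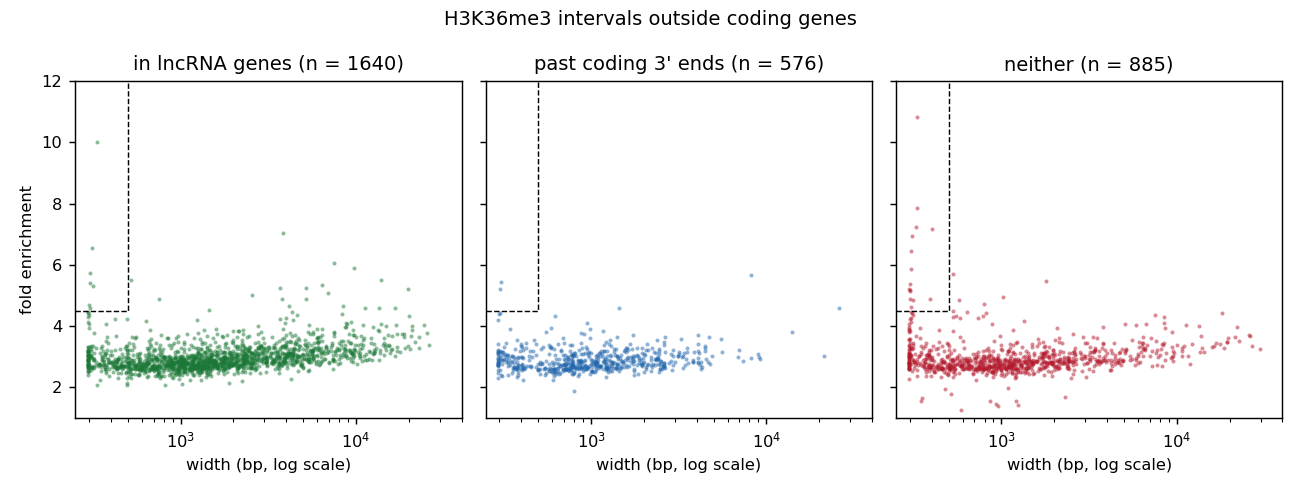
Fold enrichment (linear axis) against width (bp, log axis) of every H3K36me3 interval outside coding genes, 1 point each, in 3 panels by class. Most points lie near a fold enrichment of 3, and the dashed corner marks the 24 intervals under 500 bp with a fold enrichment over 4.5, of which 15 are of neither class.

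Past the 3′ ends of coding genes, the intervals followed the mark in the gene itself. A coding gene was examined when at least 300 of the 10000 bases past its 3′ end lay outside coding genes, and 820 of 16104 such genes had an interval there (5.09%). The share was 8.32% (7.74 to 8.92%; 700 of 8418) for genes with an H3K36me3 interval in the body and 1.56% (1.31 to 1.86%; 120 of 7686) for genes without one. Among genes without a body interval it was 3.29% (2.53 to 4.27%) with H3K4me3 within 1000 bp of the transcription start site (TSS) and 1.09% (0.859 to 1.39%) without it. With a body interval the share was 8.31% with and 8.33% without H3K4me3 at the TSS.

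The flank before the 5′ end held an interval less often when all were counted. There 451 of 15825 genes had an interval (2.85%, 2.60 to 3.12%), with 4.18% (3.77 to 4.63%) for genes with a body interval and 1.36% (1.12 to 1.64%) for those without. Among genes with no other annotated gene of any kind in the flank the share was 4.93% past the 3′ end and 0.914% before the 5′ end, with intervals of 4.41 to 5.51% and 0.703 to 1.19% that do not overlap. With intervals of q-value under 0.01 and fold enrichment over 2 alone, the shares over all genes were 1.28% (1.12 to 1.46%) past and 1.03% (0.884 to 1.2%) before, whose intervals overlap. The rule shapes what is seen closest to the gene, since an interval that begins inside the gene and runs out of it is not counted. All H3K36me3 intervals together covered 38.6% of the first kb past genes with a body interval and 4.34% of the last of the 10 kb. The intervals that touch no coding gene covered 0.731% of the first kb, 2.28% of the sixth and 1.71% of the last.

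**Figure D2:**
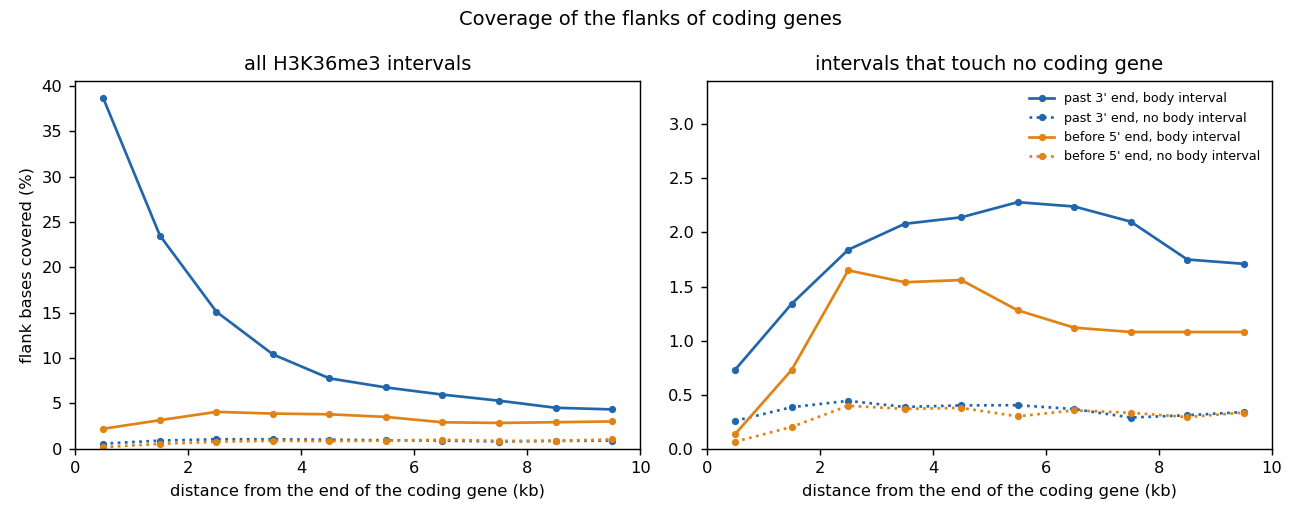
Share of flank bases outside coding genes covered by H3K36me3 (%, y axis) in 1 kb bins from 0 to 10 kb (x axis), past 3′ ends and before 5′ ends, for genes with and without an H3K36me3 interval in the body. Left, all intervals fall from 38.6 to 4.34% past marked genes. Right, intervals that touch no coding gene stay at or below 2.28%.

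Of the 16104 coding genes examined, 8418 had a body interval. H3K4me3 at the TSS was found in 7590 of these 8418 and in 1641 of the 7686 others. Of the 576 intervals past 3′ ends, the closest gene had a body interval in 509 (88.4%, 85.5 to 90.7%) and H3K4me3 at the TSS in 515 (89.4%, 86.6 to 91.7%). The near edge lay a median of 3121 bp past the 3′ end (quartiles 1472 and 5340 bp), and 94 intervals lay past 3′ ends on both strands. The highest fold enrichment of this class, 5.69, belonged to an interval of 8119 bp that starts 318 bp past ACP4 and lies over C19orf48P and the small nucleolar RNA genes SNORD88A, SNORD88B and SNORD88C. ACP4 itself had neither a body interval nor H3K4me3 at its TSS, whereas the interval overlapped an H3K4me3 peak of fold enrichment 23.7. The next fold enrichments were 5.45 for an interval 305 bp wide near PPP4R3C, 5.22 for one of 304 bp near PRKAR1B and 4.60 for one of 1448 bp near CFAP276. Those near PRKAR1B and CFAP276 also overlapped H3K4me3 peaks, of fold enrichment 6.71 and 27.8, and that near PPP4R3C overlapped no peak of the other lists. Of all 576 intervals past 3′ ends, 1.91% overlapped H3K4me3. The widest, 25829 bp at a fold enrichment of 4.58, lay over AFG3L1P, a pseudogene past DBNDD1, followed by 21190 bp over NAIPP2 past SMN2 (3.02) and 13948 bp past DEPDC1 (3.8).

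Of the 10 coding genes with the longest length covered in the 10 kb past the 3′ end, 9 had a body interval and 7 H3K4me3 at the TSS. These counts are too small to set against the shares over all coding genes. ACP4 had neither, and SPDYE5 and SPDYE3 lacked H3K4me3 there. Past DEPDC1 a single interval covered 7864 bases (fold enrichment 3.8), past CD164, which encodes a sialomucin, 7473 bases (3.0), and past XRCC1, which encodes a scaffold of DNA single-strand break repair, 6998 bases (3.23). All 3 genes carried a body interval and H3K4me3 at the TSS, with fold enrichments of 17.9, 25.4 and 18.9. Of the same 10 genes, 5 had there an interval that also lay in a lncRNA gene, namely SPDYE5, SPDYE3, ERVMER34-1, PDPK1 and FOXO3B. At the edge of the window, the farthest intervals kept lay 9943 bp past CYB5B, 9924 bp past ACTR3B and 9890 bp past MARCHF3, and the closest left to the third class lay 10007 bp past YBX1, 10098 bp past HELQ and 10102 bp past CYP24A1.

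In lncRNA genes, H3K36me3 went with H3K4me3 at the start of the gene. Of 18702 annotated lncRNA genes, 10084 share no base with a coding gene, and 541 of these had an interval (5.36%). With H3K4me3 within 1000 bp of the TSS the share was 17.5% (15.7 to 19.5%; 266 of 1517), and without it 3.21% (2.86 to 3.60%; 275 of 8567). The gap was present in each class of gene length. Genes of 5 to 20 kb had 24.7% (20.2 to 29.8%) against 2.82% (2.23 to 3.55%), and genes of 20 to 100 kb had 37.7% (32.4 to 43.3%) against 3.68% (2.93 to 4.61%). Under 5 kb the shares were 4.91% (3.62 to 6.61%) and 2.48% (2.01 to 3.06%), and over 100 kb 40.0% (30.5 to 50.3%) and 6.50% (4.97 to 8.47%). By number of annotated exons, the shares were 33.0% (29.5 to 36.8%) and 4.10% (3.52 to 4.77%) with 4 or more, and 9.22% (6.64 to 12.7%) and 2.07% (1.66 to 2.58%) with 2 or 3. With 1 exon they overlapped, at 4.40% (2.95 to 6.51%) and 3.93% (2.91 to 5.29%). Exon number moved with length, from medians of 900 and 905 bp with 1 exon to 23730 and 24939 bp with 4 or more, and the parts of the 2 were not separated. Of 241 genes that held an H3K27me3 peak, 18 had an interval (7.47%, 4.78 to 11.5%), and such genes were long, with a median of 21953 bp against 7327 bp for all.

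**Figure D3:**
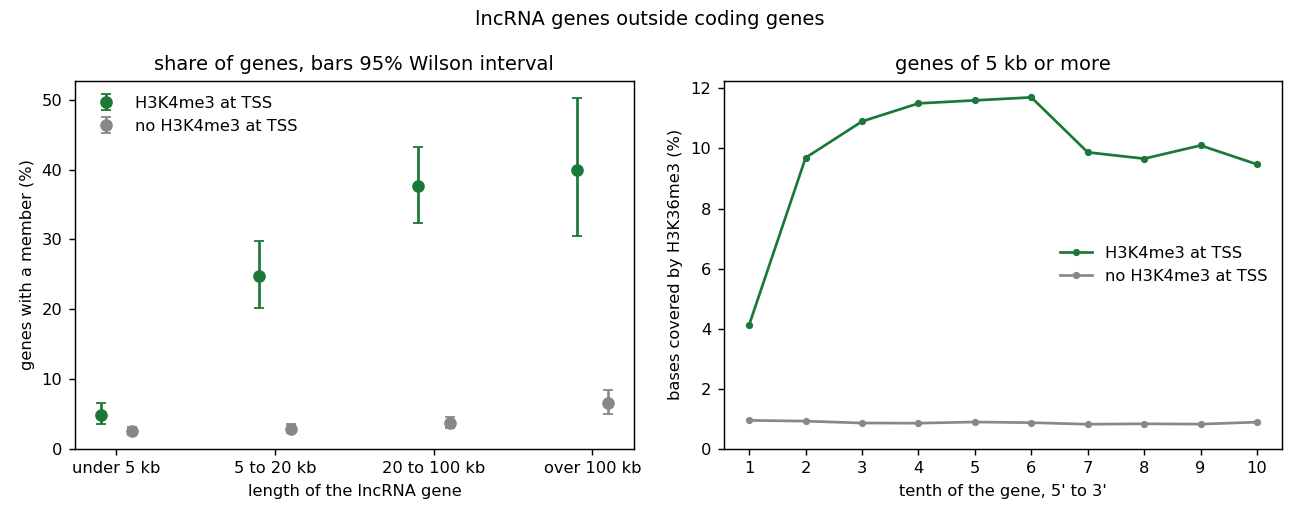
Left, share of lncRNA genes outside coding genes with an H3K36me3 interval (%) by gene length, with and without H3K4me3 at the TSS (points, share; bars, 95% Wilson interval). Right, mean share of bases covered by all H3K36me3 intervals (%) in 10 equal bins along genes of 5 kb or more, 702 with and 5142 without H3K4me3, where coverage with H3K4me3 goes from 4.13% in the first bin to 11.7% in the sixth.

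Genes of 5 kb or more were cut into 10 equal bins, and the mean coverage by all H3K36me3 intervals was taken in each. In lncRNA genes with H3K4me3 at the TSS it was low in the first bin (4.13%), highest in the sixth (11.7%) and 9.47% in the last. In coding genes with H3K4me3 it went from 14.2% in the first bin to 50.7% in the last. Without H3K4me3, lncRNA genes had 0.818 to 0.946% in every bin. Of the 1640 intervals, 773 (47.1%, 44.7 to 49.6%) touched an exon and 88 (5.37%, 4.38 to 6.56%) contained a TSS. The intervals covered 3.22% of the 26.0 Mb of lncRNA exons and 0.865% of the 409 Mb of lncRNA introns.

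A list of lncRNAs drawn up as nuclear-retained was taken first, of which NORAD is known as a mainly cytoplasmic RNA. Of 6 annotated as lncRNA genes, 5 share no base with a coding gene, and all 5 had an interval and H3K4me3 at the TSS. Of all lncRNA genes outside coding genes 5.36% had an interval. With H3K4me3 at the TSS the share was 17.5%, and 40.0% in such genes over 100 kb, a length that FTX and JPX exceed. MALAT1 (chromosome 11, 65265111 to 65275544), an abundant transcript of nuclear speckles, was covered over 61.1% of its 10434 bp at a fold enrichment of 5.34. NORAD, which binds Pumilio proteins, was covered over 69.3% of its 5401 bp at 5.24. NEAT1, the scaffold of paraspeckles, had 2 intervals over 19.1% of its 22767 bp with a highest value of 3.14. FTX, in the X-inactivation centre, had 18 intervals over 13.1% of its length. JPX lies within the span of FTX on the other strand, so its 5 intervals, over 7.24% of its length, are counted for both. KCNQ1OT1 lies wholly within a coding gene and could not have one, and TUG1 is annotated as protein-coding.

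All 20 listed hosts of small RNAs had an H3K36me3 interval of some kind. In hosts that share bases with a coding gene, such an interval can lie over that gene. The share of all lncRNA genes with an interval of any kind was not computed. An interval of the set was found in 8 of the 20, and in 817 of all 18702 lncRNA genes. Of the 20, 5 share no base with a coding gene. An interval of the set was found in 4 of these 5, in 5.36% of all such lncRNA genes, and in 17.5% of those with H3K4me3 at the TSS. SNHG1 (chromosome 11, 62619450 to 62623425), a host of small nucleolar RNAs, was covered over 91.5% of its 3976 bp, with the highest fold enrichment (7.05) of any interval wider than 500 bp outside coding genes, and had H3K4me3 at its TSS at 27.4. MIR17HG, the host of the miR-17 to miR-92 cluster, had 1 interval of 7500 bp at 6.06, with H3K4me3 at 37.6. MIR155HG had 1 of 992 bp at 2.84 and no H3K4me3 at its TSS, and MIRLET7BHG 1 of 723 bp at 2.68. All H3K36me3 intervals together covered 69.0% of MIRLET7BHG, which had H3K4me3 at its TSS at 17.2. SNHG15 was covered over 77.4%, by an interval that reached a coding gene. Among the hosts that share bases with coding genes, MIR23AHG had 2 intervals, the higher at 4.87 over MIR23A and MIR27A.

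Of the lncRNAs listed for colorectal cancer, 7 lie outside coding genes and 5 of these had an interval, where 5.36% of all such lncRNA genes did. H3K4me3 at the TSS was found in 4 of the 7. The share of lncRNA genes with an interval was 17.5% with H3K4me3 there, and 40.0% in such genes over 100 kb. PVT1 (chromosome 8, 128806772 to 129199347) held 32 intervals, which covered 139620 bp or 35.6% of the gene, the largest covered length of any lncRNA gene, with a highest fold enrichment of 4.89 and H3K4me3 at its TSS at 22.3. All H3K36me3 intervals together covered 49.0% of it. UCA1 had 1 interval over 56.6% of its 8123 bp at 4.36, and CASC19 had 6 over 19.3% with no H3K4me3 at its TSS. CRNDE and CYTOR were touched over 0.352% and 1.24% of their length, at 2.77 and 2.73. LINC00460 and LINC01082 had none, and LINC01082 held an H3K27me3 peak of fold enrichment 5.11. CCAT1 had no entry in the annotation and BLACAT1 is annotated as protein-coding.

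Of the p53-linked list, 5 lie outside coding genes and only MIR34AHG of these had intervals, 5 over 32.2% of its 50896 bp with a highest value of 3.27. LINC-PINT, which shares 81 bp with a coding gene, had 20 over 11.3% of its length. All H3K36me3 intervals together covered 39.8% of LINC-PINT. PURPL, TP53TG1, PINCR and PANDAR had no interval of any kind. Of the developmental list, MEG3, H19, LINC-ROR and MIAT lie outside coding genes and 0 of these 4 had an interval or H3K4me3 at the TSS. At the share of 5.36% for all such lncRNA genes, the counts of the p53-linked and developmental lists are too small to read. HOTAIRM1, which shares bases with a coding gene, had 1 interval over 43.3% of its 4619 bp at 2.65.

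After PVT1, the lncRNA genes with the longest covered length were less studied loci. ENSG00000237356 and LINC02331, which overlap on chromosome 14, had 77683 and 75241 bp covered, so part of the same intervals is counted for both. ENSG00000243276 on chromosome 3 had 25 intervals over 75911 bp, ENSG00000242588 on chromosome 7 had 11 over 70073 bp with H3K4me3 at 42.2, and ENSG00000288902 on chromosome 2 had 13 over 68.1% of its 87360 bp. ZNF767P and PDXDC2P-NPIPB14P, both named for pseudogenes, had 69.3% and 55.0% covered. Of the 10 genes with the longest covered length, 5 had no H3K4me3 at the annotated TSS of the canonical transcript. These were ENSG00000243276, LINC02331, ENSG00000224228, ENSG00000288902 and LINC02964. An H3K4me3 peak of fold enrichment 10.9 lay over the 5′ end of the ENSG00000243276 gene body, away from that TSS.

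The intervals of neither class were in part far from any annotated gene. Of the 885, 476 (53.8%, 50.5 to 57.0%) lay over 50 kb from any coding gene and 278 (31.4%, 28.4 to 34.5%) over 50 kb from any coding or lncRNA gene. A further 138 (15.6%) lay 10 to 20 kb past a coding 3′ end, beyond the window, and 101 (11.4%) within 10 kb before a coding 5′ end. Pseudogenes lay under 203 (22.9%, 20.3 to 25.8%), against 3.70% of all intervals under the width limit, and under 382 (23.3%) in lncRNA genes and 42 (7.29%) past 3′ ends.

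Neighbouring intervals were joined into runs. When intervals of the whole list were joined across gaps of up to 10 kb, 1971 of the 3101 (63.6%, 61.9 to 65.2%) fell in 998 runs that held no interval over a coding gene, and 1130 in runs that did. Of the 998, 653 were a single interval. Another interval lay within 10 kb of 79.0% of the set (77.5 to 80.4%), less often than the 87.7% (87.4 to 88.1%) over coding genes. Past 3′ ends 89.1% (86.3 to 91.4%) shared a run with an interval over a coding gene, in lncRNA genes 27.1% (25 to 29.3%), and of neither class 19.4% (17.0 to 22.2%). Runs of 5 or more intervals with none over a coding gene numbered 92 and held 696 of the 3101. Of these, 40 (43.5%, 33.8 to 53.7%) had an H3K4me3 peak inside or within 10 kb, and in 30 of the 40 the strongest such peak lay within 10 kb of an end, a distance that takes in the whole of the shortest run (16043 bp). In the rest of this paragraph and the next, the loci were chosen after their values were seen. The run that takes in MIR31HG on chromosome 9 had 5 intervals over 85.3% of 80829 bp, with a median fold enrichment of 4.59 and H3K4me3 at 13.8. Of these intervals 3 lay in lncRNA genes and 2 were of neither class. The run that takes in MIR222HG on chromosome X had 11 intervals over 72.4% of 105516 bp, with H3K4me3 at 14.8. Of its 10 intervals in the set, 3 lay in lncRNA genes and 7 were of neither class, and it also touches LINC02595. The H3K4me3 peak starts 105070 bp from the end of the run that holds MIR221 and MIR222.

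In 6 of the 92 runs no annotated gene of any kind was touched. The longest, on chromosome 3 from 103990103 to 104168997, held 18 intervals over 77.1% of 178895 bp, with fold enrichments of 2.48 to 4.03. Its nearest coding genes are ZPLD1, 1791418 bp to the left, and ALCAM, 916756 bp to the right. An H3K4me3 peak of 3576 bp and fold enrichment 10.1 ended 4604 bp before its right end, within a wider H3K9Ac peak of fold enrichment 9.07. The second, on chromosome 2 from 226885716 to 227013826, held 20 intervals over 52.0% of 128111 bp, with H3K4me3 at 6.86 starting 9852 bp from its left end. That peak lay within an H3K9Ac peak of 10.4, and another H3K9Ac peak, of 8.93, lay 92494 to 106860 bp from the left end. H3K4me1 peaks lay along much of the run, the widest 92651 to 119053 bp from the left end. The run lies between NYAP2 and IRS1. The next run to the right, of 8 intervals from 227026801 to 227089380, touches the lncRNA gene ENSG00000235070. A joining gap of 20 kb would take in both, so that the second run touches no gene depends on the gap of 10 kb. Another run with no gene, of 14 intervals, lies farther right, from 227255238 to 227356041. The other 4 of the 6 runs had no H3K4me3 peak within 10 kb. The number of such runs depends on the joining gap, with 7 at 5 kb and 4 at 20 kb.

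The 300 bases richest in CG dinucleotides under the H3K4me3 peak of the chromosome 2 run are shown because the annotation holds no gene there. Whether a transcript starts at this peak was not tested. The bases are from hg19, plus strand, with CG in capitals.
chr2:226895927-226896226: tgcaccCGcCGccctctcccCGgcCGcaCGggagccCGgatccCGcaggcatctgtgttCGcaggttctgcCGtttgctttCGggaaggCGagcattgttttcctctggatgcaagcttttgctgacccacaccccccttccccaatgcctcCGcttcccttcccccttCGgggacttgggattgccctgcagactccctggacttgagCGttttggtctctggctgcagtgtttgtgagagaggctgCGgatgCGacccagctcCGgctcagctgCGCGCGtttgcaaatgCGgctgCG
They hold 22 CG dinucleotides. Over the whole peak the ratio of observed to expected CG was 0.504, against a median of 0.708 over the 12749 H3K4me3 peaks past the study's limits, whose median fold enrichment was 21.1.

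**Figure D4:**
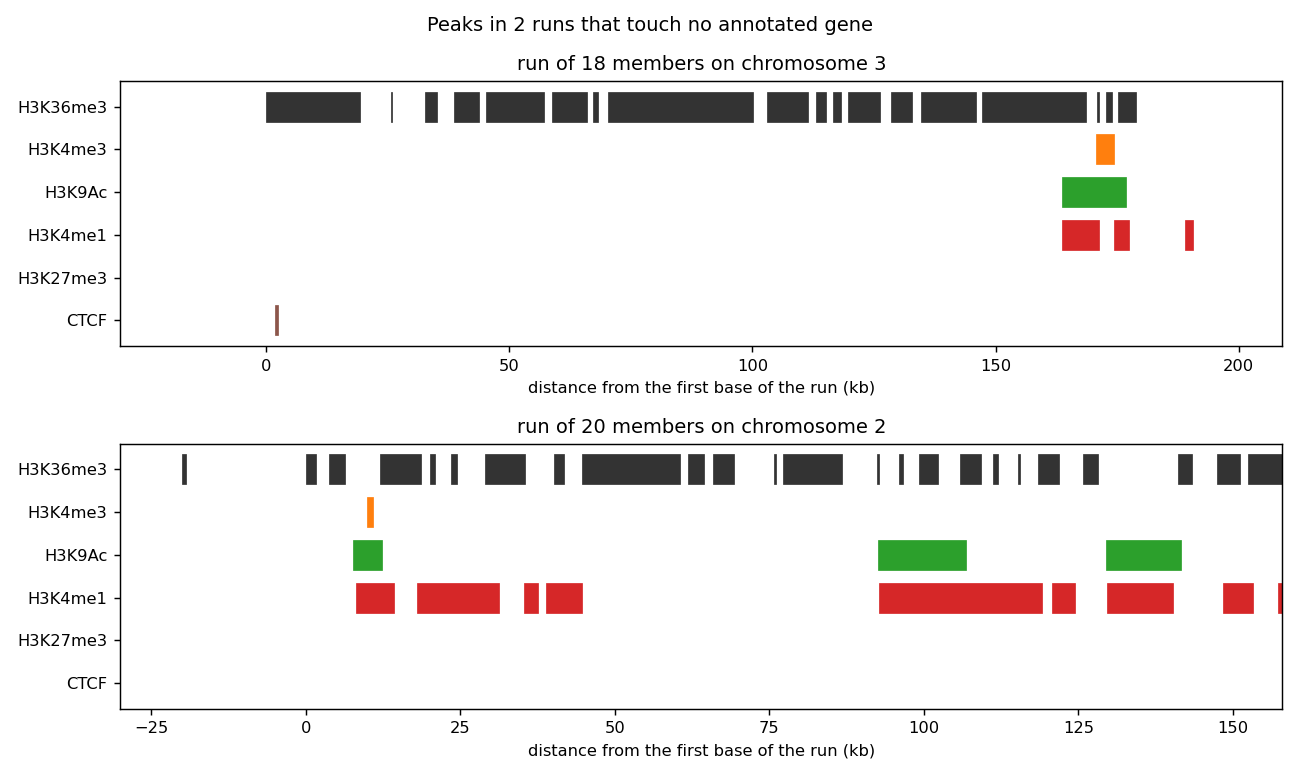
Positions of H3K36me3 intervals and of the peaks of 5 other marks (rows) along the 2 longest runs that touch no annotated gene, in kb from the first base of the run (x axis). The only H3K4me3 peak lies near the right end on chromosome 3, 170715 bp from the start, and near the left end on chromosome 2, 9852 bp from the start.

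Most of the intervals overlapped no other mark, a share near that of the list as a whole. At the limits of the study's Methods, 2371 of the 3101 (76.5%, 74.9 to 77.9%) overlapped none of H3K4me3, H3K9Ac, H3K4me1, H3K27me3 and CTCF, against 78.0% of all intervals under the width limit. Under 1000 bp it was 82.4% (80.2 to 84.4%) of the set and 88.9% (88.2 to 89.5%) over coding genes. H3K4me3 overlapped 2.81% (2.28 to 3.45%), where 4.19% of all intervals under the width limit did. H3K9Ac overlapped 11.3% against 11.1%, and CTCF 3.39% against 5.43%. H3K4me1 overlapped 19.5% against 16.1%, and among intervals of neither class 25.1% (22.3 to 28.0%). Wider intervals overlap more peaks, so shares were also taken within widths. Neighbouring intervals under the same peak were still counted separately, so the Wilson intervals can be too narrow. Under 1000 bp, H3K4me1 was found at 19.8% (16.3 to 23.8%) of intervals of neither class, 13% (10.4 to 16.1%) in lncRNA genes, 11.7% (8.56 to 15.8%) past 3′ ends and 8.98% (8.42 to 9.58%) over coding genes. At 3000 bp or more the shares were 39.1% (31.9 to 46.8%), 28.4% (24.4 to 32.7%), 28.0% (17.5 to 41.7%) and 23.8% (23.2 to 24.5%). Without H3K4me3 or H3K9Ac, H3K4me1 stood at 14.8% (12.6 to 17.3%) of intervals of neither class and at 8.11% (6.88 to 9.53%) in lncRNA genes.

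**Figure D5:**
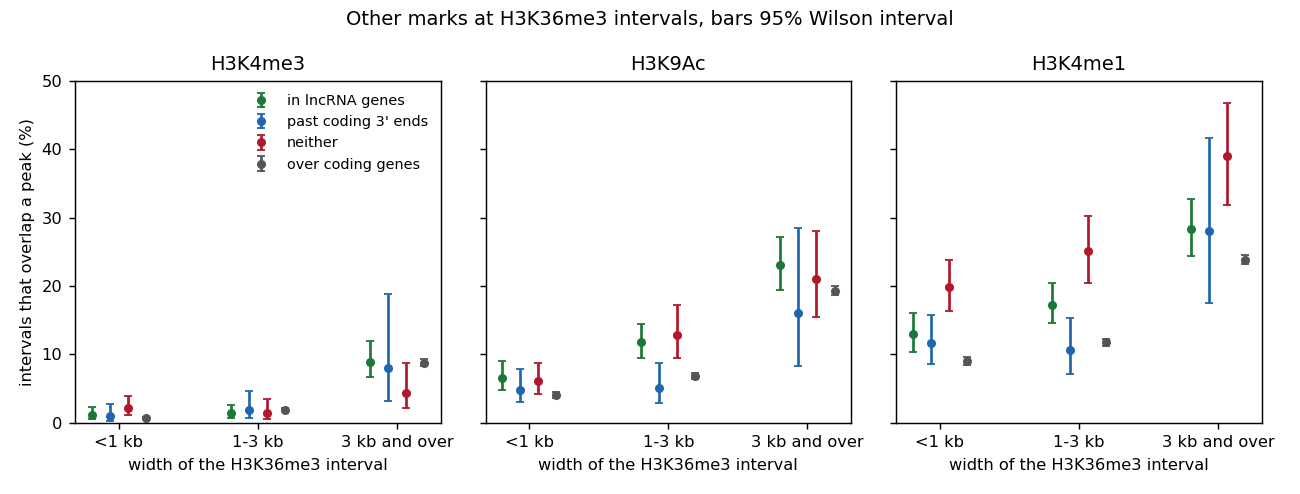
Share of H3K36me3 intervals that overlap an H3K4me3, H3K9Ac or H3K4me1 peak (%, y axis) by width of the interval (x axis), for the 3 classes outside coding genes and for intervals over coding genes (points, share; bars, 95% Wilson interval). H3K4me1 at intervals of neither class stands above that over coding genes at each width, for example 19.8% against 8.98% under 1000 bp.

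H3K27me3, which marks silenced chromatin, was rare but more frequent than over coding genes, with 20 of the 3101 (0.645%) against 0.118% of all intervals under the width limit and 0.0724% over coding genes. Under 1000 bp the shares were 1.17% (0.710 to 1.92%) outside and 0.151% (0.0902 to 0.254%) over coding genes. Of the 20, 8 had a near-identical copy elsewhere in hg19, and the part of such copies was not tested. The highest H3K27me3 value at these intervals, 10.8, belonged to one on chromosome 18 with 19 copies.

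Near-identical copies were frequent outside coding genes. A copy was a second place in hg19 with at least 95% identity over at least 50% of the interval. Of the 3101 intervals 776 had one (25%, 23.5 to 26.6%), with 31.6% (28.7 to 34.8%) of neither class, 27.3% (25.2 to 29.5%) in lncRNA genes and 8.51% (6.49 to 11.1%) past 3′ ends. Among intervals under 1000 bp the share was 24.0% (21.7 to 26.4%) outside and 3.29% (2.94 to 3.67%) over coding genes, and 5.81% over both. Over pseudogenes 67.3% (63.5 to 70.9%) had a copy, and elsewhere 14.3% (13 to 15.7%). The pseudogenes with the longest covered length were HERC2P9, with 10 intervals over 42267 bp, and HERC2P2, with 10 over 40176 bp, both copies of parts of the ubiquitin ligase gene HERC2. Reads from such sequence cannot always be placed on 1 copy, and whether these intervals mark the pseudogene or its parent was not tested. Assembly gaps lay within 50 kb of 6.89% (5.40 to 8.75%) of intervals of neither class and 0.704% (0.623 to 0.796%) over coding genes.

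Tall and narrow intervals were the other feature of the set. A fold enrichment over 4.5 at a width under 500 bp was found in 24 of the 3101 (0.774%, 0.521 to 1.15%), against 0.102% of all intervals under the width limit and 16 of 35936 over coding genes (0.0445%, 0.0274 to 0.0723%). Of the 24, 15 were of neither class, 12 overlapped no peak of any of the other 5 lists at any level, and 4 had a near-identical copy. Of all 3101 intervals, 885 (28.5%) were of neither class, 2167 (69.9%) overlapped no such peak and 776 had a copy. Lack of overlap and copies were thus not more frequent among the 24 than in the whole set. This comparison was not matched for width, and narrow intervals overlap fewer peaks. Of the 24, the interval of fold enrichment 4.88 on chromosome 3 overlapped peaks of all 5 other lists, and that of 7.86 on chromosome 2 peaks of 4. These limits of height and width were chosen after the values were seen.

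Across chromosomes the density outside coding genes lay at 1.99 intervals per Mb in all, from 0.644 on chromosome 18 to 5.50 on chromosome 22. The fullest windows of 1 Mb were chromosome 2 from 227000001 (46 intervals), chromosome 8 from 128000001 (40, over PVT1 and PCAT1) and chromosome 2 from 220000001 (38). The window of chromosome 2 from 220000001 also holds the widest interval left out by the width limit, 72509 bp over LINC02832 at a fold enrichment of 3.67.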

How the data were processed

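Peak lists of 6 PIXUL-ChIP-seq libraries of HCT116 cells, 1 per mark, were used, and the H3K27Ac library was not analysed here. Per the study's methods the authors mapped reads to hg19 (BWA, version 0.7.12 in the submitters' processing notes) and ran MACS2 in broad mode with a cutoff of 0.1, whereas those notes name MACS 1.4.2. For each whole peak the authors deposited a fold enrichment (a linear ratio), a −log10 p-value, a −log10 q-value and a score made from the q-value, which was not used. Intervals of the H3K36me3 list were set against GENCODE 44 on hg19 with Python 3.11.15 and pandas 2.3.3, at a minimum overlap of 1 bp. Peaks of the other marks were kept at the limits of the study's Methods (q-value under 1e-03 and fold enrichment over 2 for H3K4me1 and H3K27me3, 1e-10 and 5 for the rest). The TSS of a gene was that of its Ensembl canonical transcript, or the 5′ end of the gene where none was marked. Copies were searched with minimap2 2.31-r1302. Class counts were checked with bedtools 2.31.1, and 200 of 200 planted intervals were given the class they were made with. The intervals, lists and measures were chosen with earlier results of these data known. Named were the 5 highest and 3 widest intervals of each class, those at the limits, the 10 lncRNA and 10 coding genes with the longest covered length, and 5 gene lists. The microRNAs, runs, pseudogenes and tall intervals were chosen after their values were seen. Some sequences and 1 gene are not reported here. Alternatives changed the limits, widths, windows, gene sets and overlaps. Repeat masking was not used here.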

Additional observations from a re-analysis of the deposited data

How the results depend on the processing

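Of 91 alternatives over 18 results, 30 left the value within its 95% interval or within 1.5 times a count, and 61 did not. Some of the 30 could not have moved. The lncRNA class was assigned before 3′ ends, so other 3′ windows or 3′ ends of all genes leave its share at 52.9%. Joining intervals within 1000 bp left the 3101 as they were. No paired analysis was possible because the 6 libraries are single ones of different marks. With fold enrichment over 2 and q-value under 0.01, the rule kept 894 of the 3101 intervals, with 56.7% in lncRNA genes, 14.1% past 3′ ends and medians of 3.32 for fold enrichment and 2345 bp for width. It left an interval past 1.97% of coding genes with and 0.520% without a body interval, past 1.28% and before 1.03% of all, and in 10% of lncRNA genes with and 1.56% without H3K4me3. Overlap became 7.27% for H3K4me3, 20.7% for H3K9Ac, 31.8% for H3K4me1 and 6.38% for CTCF, and 28.5% had a copy. A q-value under 1e-03 left 240, with 55.0% in lncRNA genes and 10.4% past 3′ ends. The limits of the study's Methods left 8, with 37.5% and 0% in these classes, medians of 7.19 and 331 bp, 0% of coding genes in either group, 0.0659% and 0.0233% of lncRNA genes, overlaps of 25% (H3K4me3), 12.5% (H3K9Ac), 25% (H3K4me1), 0% (H3K27me3) and 12.5% (CTCF), and 100% of those of neither class over 50 kb from coding genes.

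Where intervals were left out only if at least 50% lay in coding genes, 49.4% were in lncRNA genes and 25.1% past 3′ ends. Coding genes extended by 1000 bp gave 15.8% past 3′ ends, windows of 5000 and 20000 bp 13.4% and 23%, and 3′ ends of all annotated genes 27.5%. Placing 3′ ends first gave 46.2% and 25.3%, and a lncRNA overlap of at least 50% gave 50.9% in lncRNA genes. With no other coding gene within 10 kb the shares past 3′ ends were 11.9% with and 1.27% without a body interval, and with intervals of the 3′ class alone 6.32% and 1.12%. Before 5′ ends with no other gene in the flank it was 0.914%. All deposited peaks of the other marks gave 4.77% (H3K4me3), 18.5% (H3K9Ac), 23.8% (H3K4me1), 1.84% (H3K27me3) and 8.77% (CTCF), and at least 50% of the interval covered gave 0.677% (H3K4me3), 5.68% (H3K9Ac), 11.2% (H3K4me1) and 1.03% (CTCF). Chosen after seeing the data, leaving out intervals with a copy gave 22.7% past 3′ ends and 13.4% and 2.47% of lncRNA genes with and without H3K4me3, and copies at 90% identity 28.6%. The order of genes with and without a body interval, and with and without H3K4me3 at the TSS, was the same in each alternative that left both groups above 0. At the limits of the study's Methods, the lncRNA shares of 0.0659% (0.0116 to 0.372%) and 0.0233% (0.00640 to 0.0851%) have intervals that overlap. Their order there rests on too few genes to read. With 1 library a mark, none of these shares has an error from separate cultures.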
